A study of Mus musculus with 8 samples.

Results

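Keratins are the intermediate filament proteins of epithelial cells, and 9 of their genes were examined in mouse embryonic stem (mES) cells with and without CX-5461, an inhibitor of RNA polymerase I. The genes were Krt5, Krt7, Krt8, Krt10, Krt14, Krt15, Krt17, Krt18 and Krt19, which are 9 of the 54146 gene rows in each count table. They were chosen by their measured UMI levels and shares of cells in these data, so the levels and ratios below describe them and carry no test. ICM-derived ES cells were either untreated (control) or treated with CX-5461, and both were kept for 2 days in LIF/2i medium on gelatin-coated plates with mouse embryonic fibroblast (MEF) feeder cells. No dose or duration of CX-5461 is given for these libraries in the sources used here. The labels list 4 samples per condition, yet all barcodes of a condition stand in 1 table with running numbers for names. Each condition was therefore treated as 1 library, barcodes shared between samples could not be looked for, and no p-value was computed. The control library held 3767 kept cells with a median of 12987 unique molecular identifiers (UMIs, each marking 1 captured RNA molecule) and the CX-5461 library 4697 kept cells with a median of 14213.

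A keratin filament is built from pairs of a type I and a type II keratin, and a keratin without a partner is degraded in the cell. Krt5, Krt7 and Krt8 are type II keratins, and Krt10, Krt14, Krt15, Krt17, Krt18 and Krt19 are type I. Krt8 and Krt18 pair in simple epithelia and are the first keratins of the embryo, where they mark the trophectoderm. Krt7 and Krt19 belong to ducts and other simple epithelia. Krt5 pairs with Krt14 and with Krt15 in the basal layer of stratified epithelia, Krt10 belongs to the layers above it, and Krt17 to skin appendages and wounded epidermis. Of the 55 rows named Krt and a number, 45 held at least 1 UMI in either table and 10 held none. In the GRCm38 annotation 27 of these rows lie on chromosome 11, 27 on chromosome 15 and 1 on chromosome 7. Of the 9 genes, 5 lie on chromosome 11 and 4 on chromosome 15, where the type I gene Krt18 stands 23698 bp from its type II partner Krt8. None of the 9 shared a count with another gene in the tables.

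Cells were grouped with all keratin genes left out of the clustering. The ES-like cells comprised 2363 control cells (clusters 1 and 2, and 1 cell of cluster 6) and 4407 CX-5461 cells (clusters 6, 7 and 8). Fibroblast-like cells, led by Acta2, Col1a2 and Col3a1 among others, numbered 221 and 166. The cluster led by 2C genes, which mark the state resembling the 2-cell embryo, held 12 control and 124 CX-5461 cells. A control cluster of 1171 cells with a median of 2394 UMIs stayed unnamed for its low depth, although its ES marker level was 1.08 of the average. It was used only in the sums over all kept cells and in the search for genes of similar pattern. Cluster 8 of the CX-5461 library was also shallow, with a median of 5974 UMIs and a median of 15.6% mitochondrial UMIs. Of the 12 ES markers none differed 2-fold between the libraries in ES-like cells. The same markers served to name clusters as ES-like, so this was in part set by the naming. Since library and treatment coincide, an effect of the drug and a difference between the libraries cannot be told apart in any comparison below.

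In the ES-like cells most keratin molecules came from other genes in CX-5461 than in control. Levels are given as CPM, the counts of a gene scaled to the same total of UMIs in every group. All Krt rows together made up 51.9 CPM (49.7-54.1) in control and 262 CPM (258-267) in CX-5461. In control, 52.0% (95% interval 49.9-54.1) of keratin UMIs came from Krt42, a type I keratin outside the 9, while 18.8% came from Krt8, 17.8% from Krt10 and 0.700% from Krt7. In CX-5461, 65.8% (65.1-66.6) came from Krt7, 7.83% from Krt15, 7.43% from Krt5, 5.60% from Krt42 and 0.665% from Krt8. A UMI counts a molecule once whatever the length of its gene, so these shares are of molecules captured, and the scaling of the libraries does not enter them. All intervals are exact at 95% and cover counting error only.

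Of the 9 genes, 7 passed the minimum of 200 UMIs over both libraries in ES-like cells. Of these, 4 were at least 2-fold higher in CX-5461 (Krt5, Krt7, Krt15 and Krt19), Krt8 was at least 2-fold lower, and Krt10 and Krt18 lay between. Among all 11658 genes that passed, 20.0% were at least 2-fold higher and 3.41% lower, with a median log2 ratio of 0.37 against 4.35 for the 7 keratins. Krt5, Krt7, Krt15 and Krt19 reached the minimum only through CX-5461, with between 0 and 16 UMIs in control. Krt8 reached it only through control, with 110 UMIs in CX-5461. These counts and the median of 4.35 were thus largely set by the choice of genes and the minimum. With normalization by TMM, a factor computed from the bulk of the genes, every log2 ratio in ES-like cells was 0.40 lower. In all kept cells together 7 of the 9 passed, 3 of them higher (17.8% of 12358 genes) and 1 lower (3.71%).

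**Figure D1:**
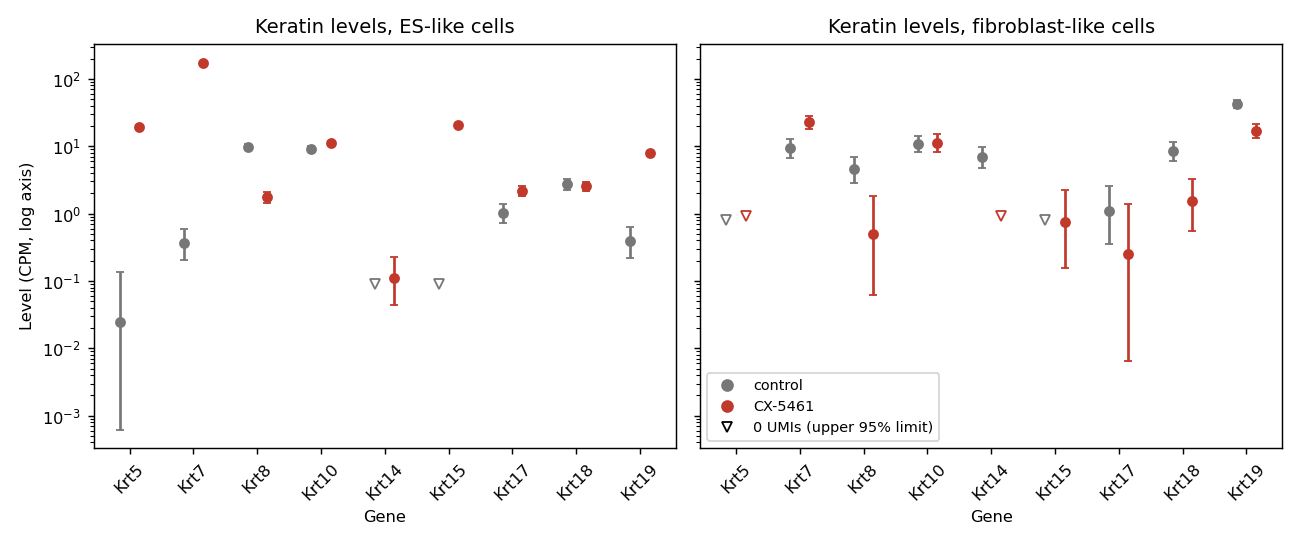
Level of the 9 keratin genes in CPM on a log axis in ES-like cells (left) and fibroblast-like cells (right) of the control (grey) and CX-5461 (red) library. Points are sums over cells with 95% Poisson intervals and open triangles give the upper limit for genes with 0 UMIs. Krt7, Krt5, Krt15 and Krt19 are higher and Krt8 lower in the CX-5461 ES-like cells, and Krt19 is lower in the CX-5461 fibroblast-like cells.

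Krt7 (ENSMUSG00000023039.17, chromosome 15, 101411043 to 101430313, plus strand) was the keratin with the most UMIs in treated cells. Control ES-like cells held 15 Krt7 UMIs in 13 of 2363 cells, a level of 0.363 CPM (0.203-0.599). CX-5461 ES-like cells held 10900 UMIs in 2972 of 4407 cells, a level of 173 CPM (170-176), which is 476-fold higher (288-850). The gene thus went from 0.550% of cells (0.293-0.939) to 67.4% (66.0-68.8), and with every cell thinned to 3000 UMIs from 0.0427% to 33.7%. No control ES-like cell held more than 2 Krt7 UMIs, whereas 17.8% of the CX-5461 cells held 5 or more and 4.47% held 10 or more, up to 35. The richest 13.7% of cells carried 50% of all Krt7 UMIs.

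The basal keratins were at or near 0 in control. Krt5 (ENSMUSG00000061527.7, chromosome 15, 101707070 to 101712898, minus strand) had 1 UMI in control ES-like cells and 1230 in CX-5461, or 19.5 CPM (18.4-20.6), a ratio of 805 whose interval from 144 to 31822 reflects the single control UMI. Krt15 (ENSMUSG00000054146.8, chromosome 11, 100131758 to 100135928, minus strand) had 0 UMIs in all 3767 control cells, and taken as 3 cells of 2363 the share of control ES-like cells with a UMI that this allows is up to 0.127%. In CX-5461 ES-like cells it had 1296 UMIs, or 20.6 CPM (19.4-21.7). That is 283-fold higher where the control library is set to 3 counts, and the exact lower limit of the ratio is 230. The type II and the type I gene of this pair were found in 19.5% (18.4-20.7) and 15.5% (14.5-16.6) of the treated cells, or in 5.93% and 5.65% after thinning. Krt14, the usual basal partner of Krt5, had 0 UMIs in control ES-like cells and 7 in CX-5461, so the keratins of the treated cells held Krt5 with Krt15 and next to no Krt14.

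Krt19 (ENSMUSG00000020911.14, chromosome 11, 100140810 to 100148665, minus strand), whose gene lies 4882 bp from Krt15, had 16 UMIs in control and 497 in CX-5461 ES-like cells. Its level of 0.388 CPM (0.222-0.630) became 7.88 CPM (7.20-8.61), 20.3-fold higher (12.4-35.8), in 0.635% and 8.94% of cells. Krt17 (ENSMUSG00000035557.9) had 42 and 139 UMIs, 1.02 and 2.20 CPM, a ratio of 2.17 (1.52-3.14), but fell short of the minimum and was not counted above.

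Krt8 (ENSMUSG00000049382.10, chromosome 15, 101996698 to 102004482, minus strand) went the other way. It had 402 UMIs in control and 110 in CX-5461 ES-like cells, 9.74 CPM (8.81-10.7) and 1.74 CPM (1.4-2.1), which is 5.58-fold lower (4.51-6.96). The share of cells with a Krt8 UMI was 13.4% (12.0-14.8) in control and 2.16% (1.75-2.63) in CX-5461, or 2.69% and 0.456% after thinning. Krt18 (ENSMUSG00000023043.7, chromosome 15, 102028180 to 102032027, plus strand), its partner in filaments, stood at 2.71 CPM (2.23-3.27) and 2.55 CPM (2.17-2.98), a ratio of 0.941 (0.735-1.21), or a log2 ratio of -0.09 that became -0.49 with TMM. Partner genes that neighbour each other on the chromosome therefore differed unequally between the libraries. Krt10 (ENSMUSG00000019761.10) had 9.23 CPM (8.33-10.2) and 11.3 CPM (10.5-12.2), a log2 ratio of 0.29 that became -0.11 with TMM, so its direction depends on the scaling.

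Outside the 9, the Krt rows with at least 50 UMIs in the kept cells of both libraries together were Krt42, Krt23, Krt13, Krt16, Krt36, Krt33a and Krt83. Krt42 stood at 27.0 CPM in control and 14.7 CPM in CX-5461 ES-like cells, 1.84-fold lower (1.68-2.01). The other 6 had between 0 and 20 UMIs in control and between 47 and 104 in CX-5461. All 6 fell short of the minimum used for the counts above. Krt23, Krt36, Krt33a and Krt83, with 0 or 1 UMIs in control, could reach 50 UMIs only through CX-5461. Their being higher was thus set by the choice of rows. Krt23 went from 1 to 104 UMIs, and Krt36, which lies 26132 bp from Krt15, from 0 to 60. Against 3 control counts Krt36 was 13.1-fold higher, and the exact lower limit of its ratio is 10.3. The genes beside Krt7 and Krt5 had few UMIs in either library. Beside Krt7, Krt87 at a distance of 725 bp had 1 and 9 UMIs and Krt88 had 0 and 13, and beside Krt5, Krt6a had 0 and 1 and Krt71 had 0 and 4, too few to compare with the ratios of Krt7 and Krt5.

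**Figure D2:**
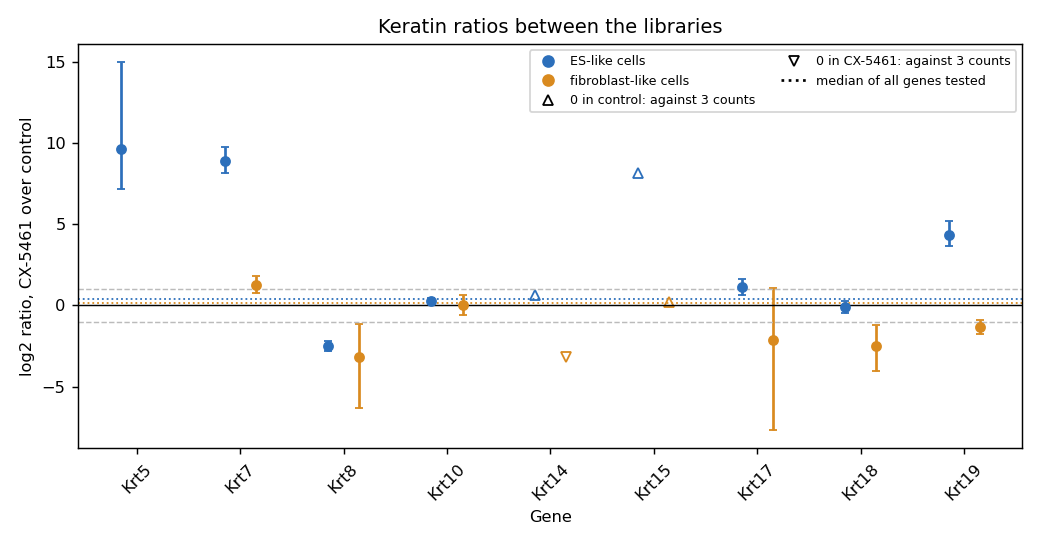
The log2 ratio of CX-5461 over control for each of the 9 keratin genes in ES-like (blue) and fibroblast-like (orange) cells, with exact 95% intervals that cover counting error. Dotted lines give the median of all genes tested in each class, dashed lines mark a 2-fold difference, and open triangles mark genes at 0 in one library, set against 3 counts. Krt19 stands at 4.35 in ES-like and -1.34 in fibroblast-like cells.

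Promoter sequences were available for 6 of the 9 genes, and 4 are shown because they belong to genes that were much higher (Krt7, Krt5), lower (Krt8) or about equal (Krt18) in treated cells. Each run gives the 250 bases before the RefSeq transcription start of GRCm38.p6, 5′ to 3′ on the strand of the gene, with motif matches in capitals. In Krt7, Krt8 and Krt18 the GENCODE gene begins upstream of this start, so all or part of the window lies inside it.
Krt7 (chr15:101412153-101412402, plus strand): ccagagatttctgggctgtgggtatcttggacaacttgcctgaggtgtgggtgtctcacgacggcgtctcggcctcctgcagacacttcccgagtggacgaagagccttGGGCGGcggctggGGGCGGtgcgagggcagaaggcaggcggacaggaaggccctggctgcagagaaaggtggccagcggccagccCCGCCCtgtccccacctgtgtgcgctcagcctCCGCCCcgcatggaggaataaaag
Krt5 (chr15:101712906-101713155, minus strand): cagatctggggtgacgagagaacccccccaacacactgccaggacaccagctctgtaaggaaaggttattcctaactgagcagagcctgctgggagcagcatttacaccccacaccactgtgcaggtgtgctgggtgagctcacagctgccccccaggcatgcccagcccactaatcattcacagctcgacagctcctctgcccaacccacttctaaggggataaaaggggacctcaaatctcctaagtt
Krt8 (chr15:102004343-102004592, minus strand): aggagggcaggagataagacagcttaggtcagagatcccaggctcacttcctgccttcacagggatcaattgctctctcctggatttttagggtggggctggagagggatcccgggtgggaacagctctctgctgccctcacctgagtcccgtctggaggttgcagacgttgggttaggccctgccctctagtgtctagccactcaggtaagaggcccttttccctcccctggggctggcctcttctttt
Krt18 (chr15:102027966-102028215, plus strand): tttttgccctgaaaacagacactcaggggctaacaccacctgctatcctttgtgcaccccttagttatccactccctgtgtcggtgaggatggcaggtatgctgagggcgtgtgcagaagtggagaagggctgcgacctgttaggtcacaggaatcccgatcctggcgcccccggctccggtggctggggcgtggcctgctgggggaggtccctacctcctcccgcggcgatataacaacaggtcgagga
The motifs searched on both strands were the TATA box TATAAA, the GC box GGGCGG, the AP-1 site TGANTCA and the E-box CACGTG. Krt7 held 4 GC boxes, beginning 141, 128, 56 and 24 bases before the start, where 32.7% of 32851 promoters held at least 1. Krt5, Krt8, Krt14 and Krt18 held none of the 4 motifs in this window, which for Krt14 lies wholly inside its GENCODE gene. Krt10 held a TATA box beginning 26 bases before the start, as 12.4% of promoters did anywhere in the window. The AP-1 site and the E-box were found in 6.75% and 6.02% of all promoters. These are matches of letters and were not tested as sites.

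Within the CX-5461 library the keratins were unevenly spread. Cluster 6 with 2952 cells was led by Nanos3 and Lefty2 among others, and cluster 7 with 947 cells by Rgs14, Krt15 and Robo3, although no keratin gene had entered the clustering. Krt7 stood at 115 CPM (112-118) in cluster 6, 120 CPM (109-133) in cluster 8 and 405 CPM (394-416) in cluster 7. It was found in 65.2%, 39.4% and 89.3% of these cells, and 17.0% of cluster 7 cells held 10 or more Krt7 UMIs against 1.12% of cluster 6 cells. Krt15 differed most between them, at 4.86 CPM (4.25-5.53) in cluster 6 and 80.8 CPM (75.9-85.9) in cluster 7, 16.6-fold higher (14.4-19.3). Krt5, Krt19 and Krt17 were 3.90-fold (3.47-4.38), 3.31-fold (2.75-3.97) and 2.96-fold (2.07-4.21) higher in cluster 7 than in cluster 6. Krt8 and Krt10 differed little between these clusters, with ratios of 1.10 (0.666-1.75) and 1.03 (0.857-1.24). Krt42 was lower in cluster 7, at 0.346 of its cluster 6 level (0.268-0.440). These are descriptions of clusters built from the same cells.

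**Figure D3:**
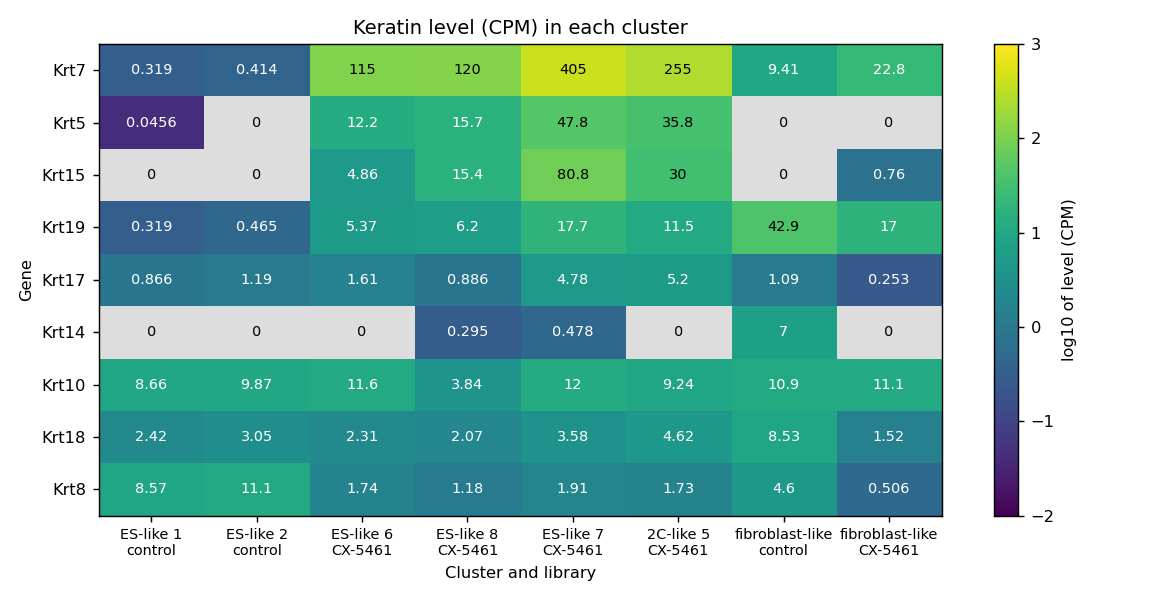
Level in CPM of each keratin gene in the clusters of either library, with colour on a log10 scale and grey for 0 UMIs. Krt7, Krt5, Krt15, Krt19 and Krt17 are highest among ES-like clusters in cluster 7, whereas Krt8 is between 1.18 and 1.91 CPM in the CX-5461 ES-like clusters and 8.57 and 11.1 CPM in the control ones.

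Cells rich in Krt7 still held ES transcripts. Among CX-5461 ES-like cells, Pou5f1, a core pluripotency gene, stood at 858 CPM in the 1435 cells without a Krt7 UMI, 751 CPM in the 2187 cells with 1 to 4 and 551 CPM in the 785 cells with 5 or more. At least 1 Pou5f1 UMI was present in 97.7%, 98.3% and 98.5% of these cells, at median depths of 13510, 14535 and 13977 UMIs. Sox2 stood at 129, 141 and 129 CPM. Krt5 went from 8.15 to 17.1 and 45.2 CPM over the same classes and Krt15 from 5.85 to 12.0 and 69.0 CPM, while Krt8 stood at 2.14, 1.57 and 1.56 CPM. Cluster 7 held 7.04% of the cells without Krt7 and 58.2% of those with 5 or more. The 255 cells with both Krt5 and Krt15 had 502 CPM of Krt7, 499 CPM of Pou5f1 and 27.1 CPM of Krt19, and 76.5% of them were in cluster 7.

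**Figure D4:**
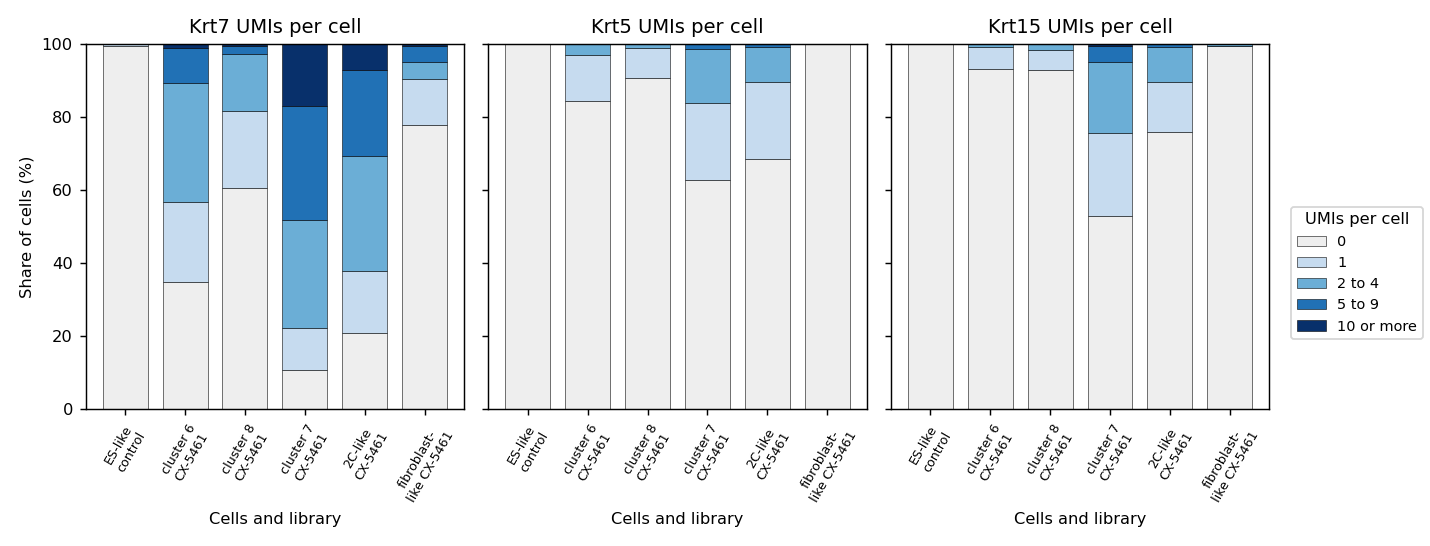
Share of cells by number of UMIs of Krt7, Krt5 and Krt15 in control ES-like cells and in 5 classes of CX-5461 cells. In control nearly every cell has 0, whereas 89.3% of cluster 7 cells, 65.2% of cluster 6 cells and 39.4% of cluster 8 cells have a Krt7 UMI.

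Because a filament needs both types, partners were also counted in the same cell. Krt5 and Krt15 were found together in 255 of 4407 CX-5461 ES-like cells, or 5.79% (5.12-6.52), where the product of their single shares gives 134 cells. The observed number was 1.91 times the product, and 1.72 to 2.18 times within each of 4 equal bins of cells by depth. After thinning it was 43 cells against a product of 14.7. No control cell held both. Within cluster 7 alone the number was 195 against 166, or 1.18 times, and within cluster 6 it was 50 against 31.7, or 1.58 times. In the shallow cluster 8 it was 10 against 3.40, or 2.94 times. In clusters 6 and 7, which held most of these cells, the excess over the product was thus smaller than over the ES-like cells as a whole. No doublet caller was run, and the part of doublets in these pairs was not tested.

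Krt8 and Krt18 were found together in 22 control ES-like cells, or 0.931% (0.584-1.41), against a product of 13.5, and in 14 CX-5461 cells, or 0.318% (0.174-0.532), against 3.08. Few cells carried these pairs: with at least 2 UMIs of each gene there were 0 control and 2 CX-5461 cells. Krt7 with the type I keratins gave 1.28 times the product for Krt15 (589 cells), 1.24 for Krt19 (330 cells) and 1.01 for Krt18 (97 cells), and with Krt5, which is of its own type, 1.26 (729 cells). Only 1435 of the 4407 CX-5461 ES-like cells lacked Krt7, so pairs with Krt7 can exceed the product only little. Their values therefore cannot be compared with that of Krt5 and Krt15. Krt18 was found in 3.26% of the cells with Krt7 and in 3.21% of the cells without it.

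**Figure D5:**
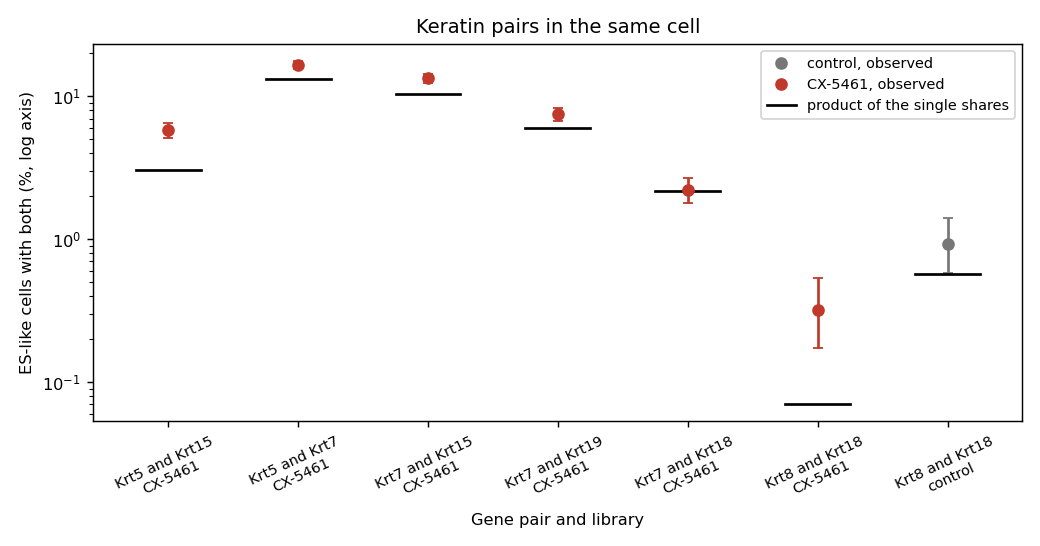
Share of ES-like cells that hold at least 1 UMI of both genes of a pair, in per cent on a log axis, with exact 95% intervals (grey control, red CX-5461). Black bars give the product of the single shares, and Krt5 with Krt15 lies above it while Krt7 with Krt18 lies on it.

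Cells with 2C genes also held Krt7, Krt5 and Krt15 in CX-5461. In CX-5461 the 2C-like cluster had 255 CPM of Krt7 (232-280), 35.8 CPM of Krt5 (27.4-45.9), 30.0 CPM of Krt15 (22.4-39.4) and 1.73 CPM of Krt8 (0.357-5.06). Krt7 and Krt5 stood at 1.48 (1.34-1.62) and 1.84 (1.40-2.37) times their levels in ES-like cells, but cluster 7 was above the 2C-like cluster for Krt7, Krt5 and Krt15. Outside the 9, Krt42 was lower in the 2C-like cluster, at 0.196 of its ES-like level (0.0636-0.460), and Krt23 higher, at 5.25 times (2.84-9.07). That Krt23 value rests on 15 UMIs in 6 of 124 cells, with up to 7 in a cell. Where 2C genes summed to 5 UMIs or more, in 142 CX-5461 cells, Krt23 stood at 2.06 CPM (0.562-5.28). Its ES-like level was 1.65 CPM, so the higher Krt23 depends on how the cells are chosen. Taking instead every ES-like or 2C-like cell with at least 1 UMI of the 2C list, 596 CX-5461 cells had 220 CPM of Krt7 against 168 CPM in the 3935 cells without one. That ratio of 1.31 (1.25-1.38) was 1.13 (1.04-1.23) within cluster 6 and 1.15 (1.07-1.24) within cluster 7. Krt15 gave 1.78 (1.56-2.03) over all, 2.07 (1.46-2.88) within cluster 6 and 1.40 (1.19-1.64) within cluster 7. In control the 97 cells with a 2C-gene UMI held 0 UMIs of Krt7, Krt5, Krt15 and Krt19, which allows a level of 1.72 CPM, and Krt8 stood at 9.16 CPM (5.24-14.9) against 9.86 CPM (8.91-10.9) in cells without. The 12 control cells of the 2C-like cluster held 5 Krt8 UMIs, 1 Krt18 UMI and none of the other 7 genes.

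The feeders had keratins of their own. In fibroblast-like cells 8 of the 9 genes held a UMI and 3 passed the minimum of 50 UMIs: Krt7 was at least 2-fold higher in CX-5461, Krt19 at least 2-fold lower, and Krt10 had a ratio of 1.02 (0.663-1.56). Among all 8479 genes that passed in these cells 8.06% were higher and 4.92% lower. Krt19 stood at 42.9 CPM (37.1-49.3) in control and 17.0 CPM (13.1-21.5) in CX-5461, 2.53-fold lower (1.91-3.39). One control cell alone held 34 of the 196 Krt19 UMIs. The shares of cells with a Krt19 UMI were closer to each other, at 28.5% (22.7-34.9) and 25.3% (18.9-32.6).

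Krt7 stood at 9.41 CPM (6.81-12.7) in the control and 22.8 CPM (18.3-28.0) in the CX-5461 fibroblast-like cells, 2.42-fold higher (1.67-3.57), in 6.33% and 22.3% of cells at median depths of 20430 and 23434 UMIs. Free RNA from lysed ES-like cells can enter any droplet, and Pou5f1, which fibroblasts lack, was read as a guide to it. In control Krt7 was 25.9-fold higher (14.1-50.2) in fibroblast-like than in ES-like cells. Of the control Krt7 UMIs, 31 sat in the 16 cells with a Krt8 or Krt18 UMI that are described below. In the fibroblast-like cells without such a UMI, Krt7 stood at 2.89 CPM in control and 22.6 CPM in CX-5461. Both ratios of Krt7 given here thus depend on those few control cells. In CX-5461 the Pou5f1 level of the fibroblast-like cells was 2.88% of that in ES-like cells (2.3-3.6), for Sox2 it was 1.88% (0.900-3.45), and for Krt7 13.2% (10.6-16.2). Krt5 with 0 UMIs and Krt15 with 3 UMIs in 1 cell were at 0% (0-4.80) and 3.70% (0.761-10.8) of their ES-like levels. The part of free RNA in the Krt7, Krt5 and Krt15 of the fibroblast-like cells was not tested.

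Krt8, Krt18 and Krt14 of the feeders sat in few cells. Of 221 control fibroblast-like cells 16 held a Krt8 or Krt18 UMI, and these held 32 of 32 Krt14 UMIs, 31 of 43 Krt7 UMIs and 41 of 196 Krt19 UMIs. The mesothelial markers fixed without keratins summed to 372 CPM in those 16 cells and 6.26 CPM in the other 205, while Col1a1 stood at 802 and 811 CPM. In CX-5461 only 3 of 166 fibroblast-like cells held a Krt8 or Krt18 UMI, and Krt14 had 0 UMIs. Krt18 had 39 and 6 UMIs in the 2 libraries and Krt8 21 and 2. Over all fibroblast-like cells the mesothelial list summed to 39.6 CPM in control and 8.36 CPM in CX-5461, with 9 and 7 of 10 markers detected and Muc16 at 0 in both. The macrophage list moved with it, from 260 CPM with 10 of 10 markers detected to 17.5 CPM with 5 of 10, Ptprc and Adgre1 at 0. Their part in the lower Krt8, Krt14, Krt18 and Krt19 was not tested.

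Markers of other epithelia were read in the ES-like cells beside the keratins. The keratinocyte list without keratins summed to 29.6 CPM in control and 184 CPM in CX-5461, with 11 and 14 of 15 markers detected. The sum came mainly from Perp, a desmosomal membrane protein and p53 target, at 5.14 and 109 CPM, and from Sfn, also a p53 target, at 16.8 and 50.6 CPM. Of the 5 keratinocyte markers that passed, 4 were at least 2-fold higher and none lower, where 20.0% of all genes were higher. Their median log2 ratio was 3.59 against 0.37 for all genes. A marker near 0 in control could pass only by being higher in CX-5461, so the minimum can have raised this count and median. Trp63, the master regulator of stratified epithelia, had 3 UMIs in control and 1 in CX-5461, Dsg3 had 0 in both and Dsc3 0 and 3. Lamb3 and Pkp1 had 0 UMIs in control and were detected in CX-5461, and Itgb4, also on this list, is given below. The trophoblast list summed to 30.3 and 45.5 CPM, with 1 of 6 markers that passed at least 2-fold higher, Ascl2, where 20.0% of all genes were, and Prl3d1 and Tpbpa at 0 in CX-5461. The part of such cells in the keratin levels was not tested.

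Genes that anchor or accompany keratin filaments were described by lists, beside the 20.0% of all genes in ES-like cells that were at least 2-fold higher and the 3.41% that were lower. As with the keratinocyte list, a gene with very few UMIs in control could pass only by being higher in CX-5461. The minimum can thus have raised the counts and medians of these lists. Of 17 genes of desmosomes and keratin linkers 9 passed and 4 were at least 2-fold higher in CX-5461, with none lower and a median log2 ratio of 0.99 against 0.37 for all genes. The 4 were Pkp2 (4.47-fold, 3.72-5.42) and Pkp3 (3.98-fold, 3.32-4.81), plaque proteins of desmosomes, Dsp (3.88-fold, 2.76-5.57), which ties keratins to them, and Itgb4 (12.1-fold, 7.41-21.0), which ties them to hemidesmosomes. Jup, the plaque protein plakoglobin, was at 56.2 and 55.4 CPM. Of 13 junction genes that passed 6 were higher, where 20.0% of all genes were, among them the claudins Cldn6 (22.8-fold, 14.1-39.3) and Cldn4 (6.93-fold, 5.78-8.37). Of 11 other intermediate filament genes 3 were higher and 1 lower, a share of higher genes not far from that of all genes, with Des at 7.20 and 42.6 CPM, Synm at 0.170 and 3.66 CPM and the neuronal Ina at 4.77 and 1.89 CPM. Of 13 transcription factors of epithelial genes 6 were higher and none lower, against the same 20.0%, with Jun 7.99-fold (6.68-9.62), Klf6 2.92-fold, Ovol2 2.71-fold and Elf3 2.25-fold. Of 19 p53 targets 13 were higher and none lower, also against 20.0%, with a median log2 ratio of 1.74.

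Genes with the most similar pattern were sought over 9 sums of library and cluster with at least 100 cells, which share 2 libraries. Among the 9 was the shallow unnamed control cluster of 1171 cells. For Krt8 they were Rbpj, Rpl36al, Khsrp, Rps21 and Rps6-ps3, with Pearson's r from 0.97 to 0.98. For Krt5 they were Spata20, C4b, Mettl7a2, Tstd1 and Plcd4, all at r of 1.00 after rounding, and for Krt15 Pla2g2f, Cldn10, Cxcl17, Fermt1 and Sbp at r of 0.99. Krt5 and Krt15 had r of 0.97 with each other and 0.91 with Krt7, whereas Krt8 had -0.83 with Krt7 and -0.01 with Krt18. These are descriptions over 9 points.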

How the data were processed

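Droplet single-cell RNA-seq (10x Single Cell 3' V2) of untreated and CX-5461-treated mES cells was used. The authors deposited 1 table of raw UMI counts for each condition, with genes by barcodes and no normalization. Per the labels, reads were processed on mm10, and the submitters' processing notes name Seurat 2.3.4. Deposited counts shared between genes served only to check the keratins.

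Barcodes with 500 UMIs or more and a mitochondrial share of up to 0.2 were kept. GENCODE for GRCm38, the assembly of mm10, gave symbols and coordinates (52480 of 54146 identifiers matched with version, 54079 without it). The tables held 49610287 UMIs in control and 69841836 UMIs in CX-5461. Cells were clustered with scanpy 1.11.5 without Krt genes (2000 variable genes, 16 components, 15 neighbours, resolution 0.5). Clusters were named by at least 3 markers among their 50 leading genes, or as ES-like where the ES marker level was 0.5 or more of the average. A cluster with a median depth under 0.333 of its library's median and none of its own markers among its 10 leading genes stayed unnamed. By this rule the control cluster of 1171 cells, at 0.184 of the control median, stayed unnamed, and cluster 8 of CX-5461, at 0.420, stayed ES-like. No cell was removed as a doublet.

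A level is the summed UMIs of a gene over the total. A gene was counted with 200 UMIs in both libraries together (50 in fibroblast-like cells) and a ratio of at least 2 either way. Intervals are exact at 95% (Poisson, conditional binomial, Clopper-Pearson), and like the floor of 3 counts they cover counting error only. Thinning to 3000 UMIs left out 800 control and 19 CX-5461 cells. TMM factors are from edgeR 4.0.16. The computation of ratios was tested on simulated data. With 1 library per condition no p-value was computed.

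The 9 genes and all lists were chosen with earlier results of these data known. Named were the 9 genes, other Krt genes with at least 50 UMIs, the 5 most similar genes, and up to 4 genes of each list with the largest ratio. List genes outside this rule, the neighbours, the pairs with Krt7, the comparisons between clusters and the split of fibroblast-like cells were added after their values were seen. Alternatives were TMM, the mean over cells, a minimum 10 times lower, stricter cells, every barcode, leaving out the top cell, resolution 1.0, thinning and a limit of 2 UMIs. Promoters are from RefSeq, and those of Krt15, Krt17 and Krt19 were not used here.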

Additional observations from a re-analysis of the deposited data

Results flagged for a closer look

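Krt19 differed in opposite directions in the classes of cells. Its log2 ratio of CX-5461 over control was 4.35 (3.63 to 5.16) in ES-like cells and -1.34 (-1.76 to -0.93) in fibroblast-like cells. It stood out because the direction was opposite under the same contrast. With 1 library per condition the difference between the ratios was not tested. The directions were the same with TMM, with ratios of 3.94 and -1.49.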

How the results depend on the processing

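The numbers of keratins at least 2-fold higher were within 1.5 times of the reported ones under every alternative run. With a minimum 10 times lower, 2 were lower in all kept cells (Krt8 and Krt14) and 5 in fibroblast-like cells (Krt8, Krt14, Krt17, Krt18 and Krt19), by construction, since genes with fewer UMIs entered. Because Krt15 had 0 UMIs in control, the difference in Krt5/Krt15 co-detection between CX-5461 and control is the CX-5461 share itself. This difference, 5.79 percentage points of ES-like cells, was 0.980 after thinning and 1.63 with at least 2 UMIs of each gene. That of Krt8/Krt18, -0.613 points, was -0.0625 after thinning and reversed to 0.0454 with at least 2 UMIs, on 0 control and 2 CX-5461 cells. Both settings leave fewer cells with a UMI by construction. The Krt17 log2 ratio in fibroblast-like cells, -2.11 on 5 and 1 UMIs, reversed to 0.80 without the richest cell of each library. Of 130 log2 ratios under alternatives, 112 stayed within the counting interval. The sign changed in 6: that of Krt17, the only one whose reported ratio was past 2-fold, Krt18 in all kept cells as a mean over cells, and Krt10 with TMM in all kept (-0.04), ES-like (-0.11) and fibroblast-like cells (-0.13) and as a mean over fibroblast-like cells (-0.02). In all kept cells, which mix classes of unequal size, the Krt19 log2 ratio of 0.99 was 0.64 with TMM and 2.02 as a mean over cells, and that of Krt18 went from -0.29 to 0.09 as a mean over cells. No paired analysis was possible because the tables give no sample for a barcode. Leaving out a replicate could not be done for the same reason, and the depth limits Krt14, Krt15 and Krt5 in the 166 to 221 fibroblast-like cells of each library, where 0 UMIs allow 0.657 to 0.760 CPM.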
